A study of Mus musculus with 6 samples.

Results

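The major urinary proteins of mouse liver are described here by the 10 *Mup* genes with the highest mean level in the deposited comparison of *Txndc5*-deficient and wild type livers. The table listed 16123 genes, of which 21 were named *Mup* followed by a number. The 10 with the highest mean of the WT and KO values were *Mup15*, *Mup14*, *Mup19*, *Mup11*, *Mup20*, *Mup10*, *Mup3*, *Mup17*, *Mup7* and *Mup2*. The choice used the same values that are given below, so that the high level of these genes is not a result and their WT and KO values are a description without a test.

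Major urinary proteins are small secreted lipocalins, barrel-shaped proteins that bind hydrophobic ligands in an inner pocket. The liver makes them, the kidney filters them into the urine, and there they carry volatile pheromones and act as scent signals themselves. In adult males their genes are transcribed under the pulsatile pattern of growth hormone, with androgens, thyroid hormone and glucocorticoids acting upstream, and food deprivation and energy state are also known to alter their mRNA.

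Liver RNA came from 2-month-old male mice that ate a purified chow diet for 4 weeks and were fasted for 16 h. The 3 WT libraries were of strain C57BL/6Rj and the 3 KO libraries of C57BL/6JRj-Txndc5<em2Mdnp>/Ciba, in which exon 3 of *Txndc5*, a protein disulfide isomerase of the endoplasmic reticulum, was deleted by CRISPR/Cas9 in every cell. The KO line descends from 1 founder that was crossed to C57BL/6J mice. The paper states that the males of both genotypes came from heterozygous crosses. Each library was a pool of RNA from 3 mice. Each gene has 1 deposited value per genotype, in normalised reads, that combines its 3 pools; no spread between pools is given with it, and a ratio is called here only by a fold of 1.5.

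The libraries held between 44040160 and 46050030 clean reads of 100 bases, of which 91.6% to 93.7% mapped to the genome and 27.8% to 30.2% mapped but not to a single place. *Txndc5* itself had 2697 normalised reads in WT and 90.8 in KO, 29.7-fold lower. The hepatocyte markers *Alb*, *Apoa1*, *Ttr*, *Cps1* and *Tat* were all among the listed genes, with a median log2 ratio of KO over WT of -0.10 (*Alb* 0.00, *Apoa1* -0.40, *Ttr* -0.26). None of 4 kidney markers (*Umod*, *Slc34a1*, *Kap*, *Slc12a1*) was listed.

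The 10 genes lie in 1 cluster on mouse chromosome 4. In the GENCODE M21 annotation of GRCm38, the assembly also called mm10, the 21 *Mup* genes stretch over 2194 kb (chr4:59956804-62150863) and the 10 abundant ones over 2021 kb of it (chr4:60066469-62087342), all 10 on the minus strand. *Mup7* (chr4:60066469-60070475) and *Mup2* (chr4:60135932-60154289) stand toward one end, *Mup10* (chr4:60578260-60582199) and *Mup11* (chr4:60658466-60662411) follow, and *Mup14* (chr4:61300023-61304000), *Mup15* (chr4:61435790-61439743), *Mup17* (chr4:61591929-61595871) and *Mup19* (chr4:61778324-61782269) make up a further stretch. *Mup20* (chr4:62050234-62054158) and *Mup3* (chr4:62083476-62087342) stand at the other end. Each of the 10 has an annotated transcript of 7 exons, with a coding length of 543 to 555 bases and of exactly 543 in 7 of them. Among the 54 annotated genes within the cluster, 26 are *Mup* pseudogenes.

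The coding sequences are copies of each other, and this decides how far a single read can be given to a single gene. Apart from *Mup3* and *Mup20*, the 8 other genes were 98.4% to 99.6% identical over their coding bases in every one of 28 pairs, with at most 9 bases different. The closest pair among the 10, *Mup15* and *Mup2*, differed at 2 coding bases. *Mup20*, which encodes darcin, the male pheromone that attracts females, was at most 91.4% identical to another of the 10 (*Mup11*), and *Mup3* at most 87.1% (*Mup20*). The stretch that the 8 genes have in common shows why a read from one may belong to any of them: its 116 coding bases were found without a change in 14 of the 21 *Mup* genes. In *Mup15* it starts in exon 3 (chr4:61438223-61438277) and ends in exon 4 (chr4:61437533-61437593), on the minus strand. A shorter run of 29 bases was present in all 10 genes and in 17 of 21, in *Mup15* across exon 4 (chr4:61437483-61437490) and exon 5 (chr4:61437119-61437139). Both are printed from the GENCODE transcripts.
Run of the 8 near-identical genes: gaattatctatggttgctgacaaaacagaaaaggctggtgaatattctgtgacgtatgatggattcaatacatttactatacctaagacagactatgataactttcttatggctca
Run of all 10 genes: gctctatggccgagaaccagatttgagtt

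The share of each transcript that a 100-base read could place was counted as the windows of that length found in no transcript of another gene. No window of *Mup19* was unique (0%), and the share was 2.66% for both *Mup2* and *Mup15* and 8.60% for *Mup14*. It was 12.9% for *Mup7*, 14.6% for *Mup10*, 16.5% for *Mup11* and 40.6% for *Mup17*. Of the 10, only *Mup20*, with 61.2%, and *Mup3*, with 97.1%, had most of their transcript to themselves. Among the 10, the WT and KO values of these 2 genes therefore depend least on how the authors divided shared reads. The single values of the other 8 are uncertain, while their sum is less so. Outside the 21, 27 genes had a run of 31 bases in common with a *Mup* transcript, 22 of them *Mup* pseudogenes; a run of that length is shorter than a read. Windows of 100 bases of *Mup3* and of *Mup20* were found in 1 other gene each, and each of the 8 other genes shared windows with 16 or 17 other genes, the family included.

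**Figure D1:**
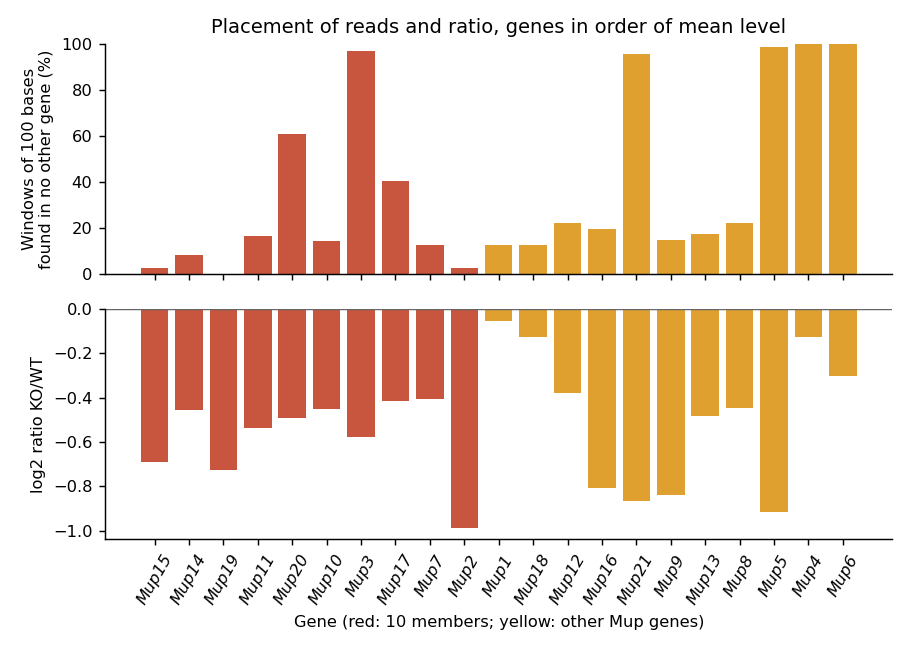
Upper bars give the percent of 100-base windows of each *Mup* transcript that occur in no other gene, and lower bars the log2 ratio of KO over WT, with the 21 genes in order of mean level and the 10 abundant ones in red. *Mup3* (97.1%) and *Mup20* (61.2%) stand out among the 10 by their unique windows, with ratios of -0.58 and -0.49 within the range of the other 8.

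The promoters of the genes are copies too. RefSeq promoter windows on GRCm38.p6, from 250 bases before to 50 after the annotated start, were found for 9 of the 10 genes, and *Mup20* was not in the table. The letters ATCAAT, counted on both strands, occurred 2 times or more in 9 of 9 windows and in 14 of 14 windows of the whole family, against 0.694% of 32851 promoters. TATATAA was present in 8 of 9 (all but *Mup7*), against 3.24% of all promoters. It ended 18 to 24 bases before the RefSeq start in *Mup15*, *Mup2*, *Mup10*, *Mup17* and *Mup19* and 4 bases before it in *Mup3*, and it ended past the annotated start in *Mup11* and *Mup14*, so that its place relative to the start differs with the annotation. The sequences printed here end at TATATAA and are shown because they hold both motifs in the order most of the genes share. Capitals mark ATCAAT and TATATAA, which overlapped no other motif searched, and each sequence reads 5′ to 3′ on the strand of the gene. The stretch of *Mup19* (chr4:61782249-61782450, minus strand) was identical to that of *Mup15*.
Mup15 (chr4:61439723-61439924, minus strand): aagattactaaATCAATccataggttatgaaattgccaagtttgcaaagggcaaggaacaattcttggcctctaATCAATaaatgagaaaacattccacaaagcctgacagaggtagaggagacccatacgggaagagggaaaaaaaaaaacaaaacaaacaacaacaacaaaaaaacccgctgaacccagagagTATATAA
Mup2 (chr4:60139877-60140078, minus strand): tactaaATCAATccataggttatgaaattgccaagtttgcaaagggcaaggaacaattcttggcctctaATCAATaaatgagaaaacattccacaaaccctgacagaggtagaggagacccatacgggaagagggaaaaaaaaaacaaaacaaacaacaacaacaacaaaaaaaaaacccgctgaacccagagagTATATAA
Mup10 (chr4:60582179-60582380, minus strand): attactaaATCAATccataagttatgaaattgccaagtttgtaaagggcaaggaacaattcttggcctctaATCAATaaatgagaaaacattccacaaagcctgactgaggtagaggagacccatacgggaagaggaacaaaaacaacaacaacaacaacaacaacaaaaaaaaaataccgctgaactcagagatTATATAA
Mup3 (chr4:62087322-62087523, minus strand): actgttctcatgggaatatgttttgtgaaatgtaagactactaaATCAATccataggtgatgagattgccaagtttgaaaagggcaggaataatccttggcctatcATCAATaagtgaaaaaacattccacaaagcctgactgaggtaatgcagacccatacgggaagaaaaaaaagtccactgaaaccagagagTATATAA

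Among the 7 of these stretches that are not from *Mup3*, identity was 83.0% to 100% with a median of 93.1%, while that of *Mup3* was 60.8% to 68.0% identical to the others. Further motifs were searched on both strands of the 300-base windows. TTCNNNGAA, the motif of STAT5, which carries the growth hormone signal, was found in 0 of 9 windows and in 8.30% of all promoters. TTGCNNAA, a C/EBP motif, was found in 0 of 9 and in 10.8% of all. TGTTTNC, a forkhead motif, was in 8 of 9 against 20.5%, CCAAT in 5 of 9 against 37.4%, and TGTTCT, a core motif of steroid receptors, in 1 of 9 against 19.0%. A match is a run of letters and not a site shown to be bound, and a motif absent from these windows may lie outside them.

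All 10 genes had a lower value in KO than in WT. Summed, they went from 1010467 normalised reads in WT to 677786 in KO (log2 ratio -0.58, 32.9% lower), and their share of the values of all genes went from 5.11% to 3.66%. All genes outside the family, summed in the same way, had a log2 ratio of -0.07. The ratios of the 10 ranged from -0.99 to -0.41 with a median of -0.51, against a median of -0.05 over the 11367 genes with a mean of at least 10. Of these genes 57.7% were lower in KO, and of the 222 with a mean of at least 10000 it was 65.8%. In bulk liver RNA, fewer cells that express a gene and less RNA per cell cannot be told apart.

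Levels are compared between genes as normalised reads per kb of the gene model length in the deposited table. *Mup15* stood highest, with 248876 normalised reads per kb in WT and 154444 in KO, and *Mup14* was next with 216101 and 157747. The 2 genes were in reverse order in KO. Among all genes of the table they held the 7th and 8th places by mean level per kb. *Mup19* followed with 173714 in WT and 105118 in KO, and *Mup11* with 145386 and 100271. These 4 genes held 65.7% of the family's normalised reads. *Mup20* had 87304 per kb in WT and 62128 in KO, *Mup10* 71426 and 52242, and *Mup3* 60867 and 40754. The lowest levels were those of *Mup2* (46241 in WT and 23288 in KO), *Mup17* (38352 and 28800) and *Mup7* (32273 and 24361). In WT *Mup2* was above *Mup17*, and in KO it was below both *Mup17* and *Mup7*. With 1 value per genotype, no pair of neighbours in this order can be said to differ beyond a spread.

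**Figure D2:**
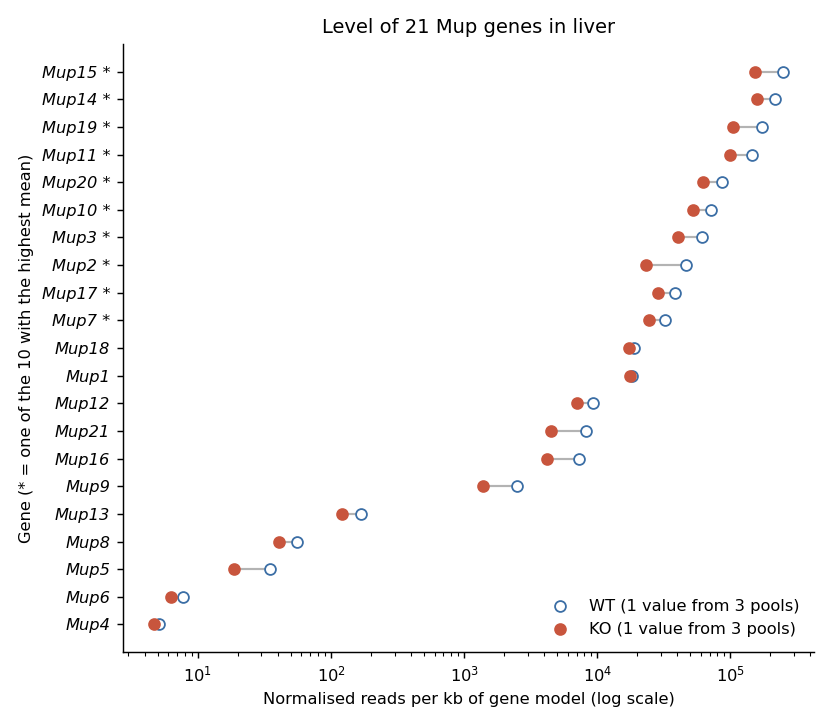
Level of each of the 21 *Mup* genes in normalised reads per kb of gene model on a log axis, with 1 value for WT (open circle) and 1 for KO (filled circle) and an asterisk on the 10 abundant genes. The KO circle lies to the left of the WT circle for every gene, from *Mup15* (248876 and 154444) down to *Mup4* (5.13 and 4.70).

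The 8 near-identical genes together went from 875843 to 584335 normalised reads (log2 ratio -0.58). The ratio of this sum depends less on the division of reads among the 8 than their single values do, but each value was shrunken on its own and further *Mup* genes share the same sequence. *Mup2* had the lowest ratio of the 10, with 35235 normalised reads in WT and 17746 in KO (-0.99, 49.6% lower). *Mup19* went from 152521 to 92294 (-0.72, 39.5% lower), and *Mup15* from 221251 to 137301 (-0.69, 37.9% lower). These 3 were the genes past the fold of 1.5 among the 10, and they were also the 3 with the smallest shares of unique windows. Of the 11 other *Mup* genes, 4 were past the fold, with shares from 14.9% (*Mup9*) to 98.7% (*Mup5*). Those not past it had shares from 12.8% (*Mup1*) to 100% (*Mup4* and *Mup6*). The background for the count of 3 among the 10 was 5.79% of the 11367 genes with a mean of at least 10 and 1.8% of the 222 genes with a mean of at least 10000. Since the 10 were picked from the same values, the count is not read against it.

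The other 5 near-identical genes were lower in KO by less than that fold. *Mup11* had 134482 normalised reads in WT and 92751 in KO (log2 ratio -0.54). *Mup14*, the second most abundant, had 200110 and 146074 (-0.45, 27.0% lower). *Mup10* had 64927 and 47487 (-0.45, 26.9% lower). Among these 5 the weakest ratios were at the lower end of the levels. *Mup2*, with a still lower mean (26490 normalised reads), had the lowest ratio of the 10. *Mup17* had 33979 in WT and 25517 in KO (-0.41, 24.9% lower), and *Mup7* had 33338 and 25165 (-0.41, 24.5% lower). *Mup15* and *Mup2*, which differ at 2 coding bases, thus had log2 ratios of -0.69 and -0.99, and with 2.66% unique windows each, the share of this gap that comes from the division of reads was not tested.

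*Mup3* and *Mup20*, the pair among the 10 with most of their sequence to themselves, were lower as well. *Mup3* went from 55875 to 37412 normalised reads, which is 1.49-fold lower in KO (log2 ratio -0.58). *Mup20*, the darcin gene, went from 78748 to 56040 (-0.49, 28.8% lower). Their sum went from 134624 to 93451, 30.6% lower, beside 33.3% for the 8 near-identical genes. Neither of the pair passed the fold of 1.5.

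**Figure D3:**
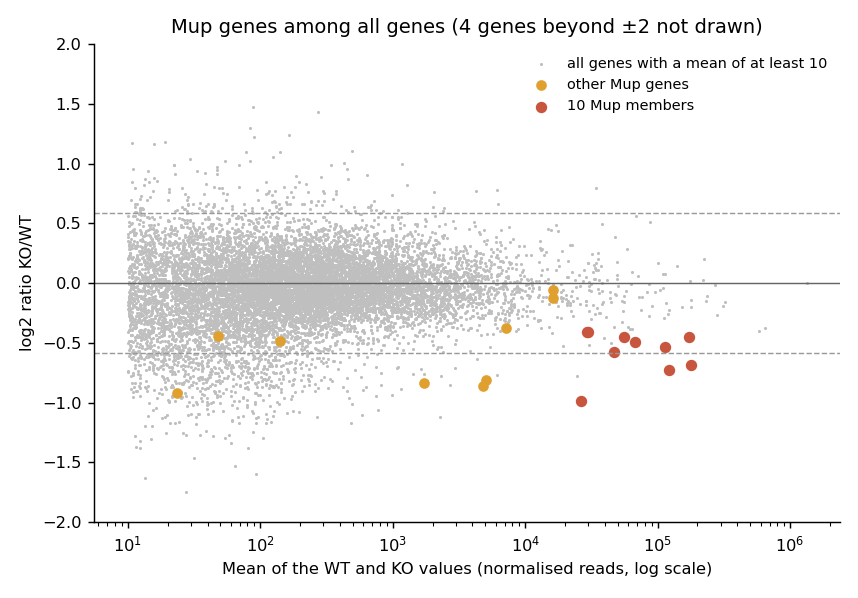
Log2 ratio of KO over WT against the mean of the 2 values on a log axis for the 11367 genes with a mean of at least 10 (grey), with the 10 *Mup* genes in red, other *Mup* genes in yellow and dashed lines at a fold of 1.5. The 10 lie between -0.99 and -0.41, all below 0. The median of the 210 genes outside the family with a mean of at least 10000 was -0.07.

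Among the 222 genes with a mean of at least 10000, ordered from the lowest log2 ratio, the 10 held places between 1 and 17. The 7 genes between them included *Rn18s*, *Apoa4*, *Atf5*, *Apob*, *Apoc1* and *Asl*, which were named after their values were seen. Only 4 of the 222 were at least 1.5-fold lower, *Mup2*, *Mup19*, *Mup15* and *Rn18s*, the 18S ribosomal RNA, which went from 31267 to 18290 normalised reads. At or above the mean of *Mup2*, the lowest of the 10, there were 116 genes, 106 of them outside the family, and 77 of the 116 were lower in KO. The genes outside the family with the log2 ratio nearest to that of *Mup15*, among 1749 with a mean of at least 1000, included *Gpcpd1* (-0.70) and *Cox7b* (-0.71), a subunit of cytochrome c oxidase. Likeness was measured over 1 ratio only, the distance in log2 units.

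The limit of the choice fell between *Mup2* and *Mup1*. *Mup2* had a mean of 26490 normalised reads, and *Mup1*, just outside, 16261. *Mup1* had 16577 in WT and 15944 in KO (log2 ratio -0.06), and *Mup18* had 16789 and 15388 (-0.13). These 2 genes were nearly level between the genotypes. *Mup18* differs from *Mup11* (-0.54) at 1 coding base. The share of unique windows of 100 bases was 12.8% for *Mup1* and 12.9% for *Mup18*, so that their single values are uncertain too. The part of read division in these ratios was not tested. When log2 ratios were set relative to the sum of all genes outside the family, *Mup1* turned to 0.01 and the 20 other genes stayed below 0.

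The remaining 9 genes of the family covered a wide span of levels. *Mup12* had 8148 normalised reads in WT and 6268 in KO (-0.38). *Mup16* had 6453 and 3686 (-0.81), *Mup21* 6205 and 3409 (-0.86), and *Mup9* 2203 and 1232 (-0.84), each past the fold of 1.5. The share of unique windows of 100 bases was 95.5% for *Mup21*, 19.9% for *Mup16* and 14.9% for *Mup9*. *Mup16* and *Mup9* differ from *Mup19* at 1 coding base each. *Mup13* had 165 and 118 (-0.48), and *Mup8* 55.1 and 40.4 (-0.45). *Mup5*, *Mup4* and *Mup6* were close to absent from liver: *Mup5* had 30.5 and 16.2 (-0.92), *Mup4* 4.49 and 4.12 (-0.13), and *Mup6* 4.2 and 3.41 (-0.30). Together the 11 genes outside the 10 went from 56634 to 46110 normalised reads, a log2 ratio of -0.30, and 7 of all 21 genes were at least 1.5-fold lower in KO, all 7 with a mean of at least 10, where the background was 5.79%. *Mup4* and *Mup6* had a mean under 10. The 10 abundant genes held 94.3% of the family's normalised reads.

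**Figure D4:**
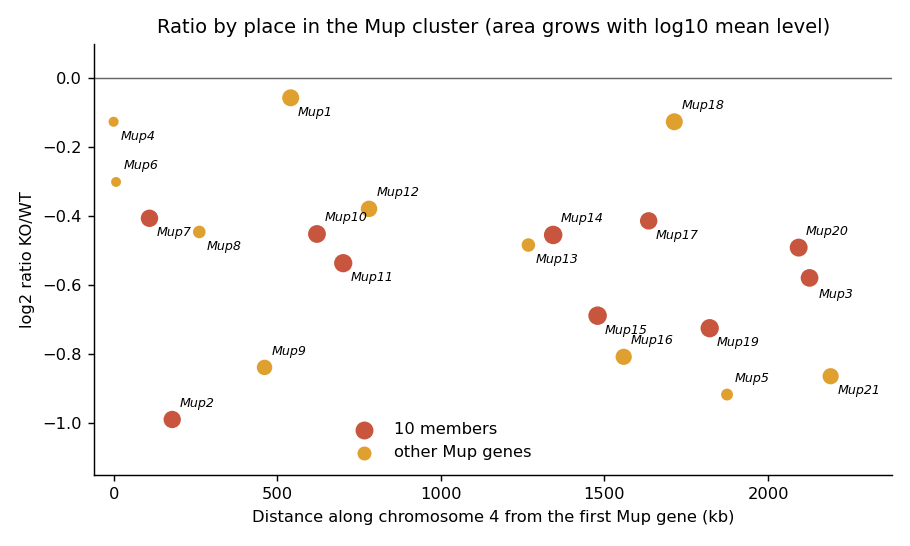
Log2 ratio of KO over WT of each of the 21 *Mup* genes against its distance along chromosome 4, in kb, from the first gene of the cluster, with the 10 abundant genes in red and the area of a point growing with the log10 of the mean level. Some neighbours along the cluster differ in ratio: *Mup2* (-0.99) stands near *Mup7* (-0.41), and *Mup19* (-0.72) near *Mup18* (-0.13). Others are close, such as *Mup10* (-0.45) and *Mup11* (-0.54), or *Mup20* (-0.49) and *Mup3* (-0.58). The share of unique 100-base windows was 0% for *Mup19*, 2.66% for *Mup2* and 12.9% for *Mup7* and *Mup18*, so that their single ratios are uncertain.

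Reads per library could be worked back for weakly expressed genes, because a deposited mean over 6 libraries is a sum of whole reads. This was possible for *Mup5*, *Mup8*, *Mup4* and *Mup6*, none of them among the 10. The recovered libraries carry a genotype but no pool number and are numbered by decreasing size factor. *Mup5* had 29.4, 55.7 and 13.5 normalised reads in WT libraries 1 to 3 and 11.4, 16.4 and 13.5 in KO libraries 1 to 3, or 32.9 ± 21.4 against 13.8 ± 2.5 (SD, n = 3). WT library 3 fell within the range of the KO libraries, so that the groups overlapped. The two-sided exact permutation test gave p = 0.3 (n = 3 per genotype), where 0.1 is the smallest p possible. With limma over 3307 genes the log2 difference was -0.99 (SE 0.54), with a Benjamini-Hochberg adjusted p = 0.999.

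*Mup8* had 52.3, 104.6 and 15.9 normalised reads in the WT libraries and 52.6, 19.3 and 41.8 in the KO libraries, or 57.6 ± 44.6 against 37.9 ± 17 (SD, n = 3). The groups overlapped fully, with an exact permutation p = 0.7 and a limma log2 difference of -0.34 (SE 0.69; adjusted p = 0.999). *Mup4* had 6.53, 7.96 and 0 against 4.57, 6.76 and 0 (exact permutation p = 0.8), and *Mup6* 7.35, 5.69 and 1.22 against 4.57, 2.90 and 1.13 (exact permutation p = 0.4). The smallest WT value was that of WT library 3 for all 4 genes. Of the 2 *Mup* genes tested by limma, 0 had an adjusted p under 0.05 and 0 an unadjusted p under 0.05, where 0.0302% of the 3307 genes passed the first limit and 1.91% the second. For each of these 4 weak genes the SD over the WT libraries was larger than the difference between the means of the genotypes. The share of unique windows of 100 bases was 22.2% for *Mup8*, 98.7% for *Mup5* and 100% for *Mup4* and *Mup6*. *Mup8* differs from the far more abundant *Mup14* at 3 coding bases. Whether the reads of *Mup8* include some that came from other *Mup* genes was not tested. For the 10 abundant genes the spread is not known.

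**Figure D5:**
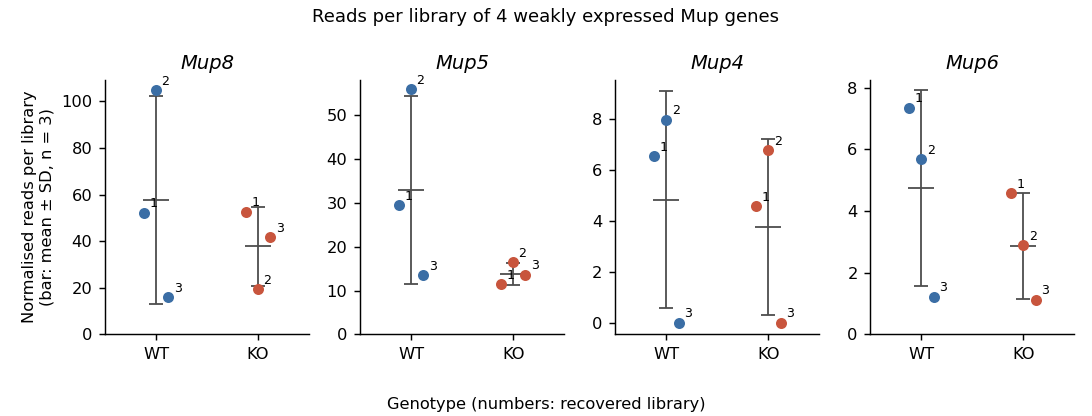
Normalised reads per library of *Mup8*, *Mup5*, *Mup4* and *Mup6*, with each of the 3 WT (blue) and 3 KO (red) recovered libraries as a numbered point and bars for mean ± SD. In each panel WT and KO points overlap, and WT library 3 is the lowest of the WT points.

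Of a set of growth hormone signalling genes, their targets and feedback inhibitors, and regulators of transcription in liver, 22 were listed. All 22 had a mean of at least 10. The median log2 ratio was -0.09, with 0 genes at least 1.5-fold higher in KO (background 1.57%) and 2 at least 1.5-fold lower (background 5.79%). *Socs2*, a feedback inhibitor of growth hormone signalling and a target of STAT5, went from 264.6 normalised reads in WT to 125.5 in KO (-1.08). *Cux2*, a transcription factor usually higher in female liver, went from 47.8 to 25.1 (-0.93). The receptor *Ghr* (-0.25) and *Stat5b* (0.02), the main STAT of this pathway in liver, moved by less than the fold. The most abundant genes of the list were *Hnf4a* (0.23) and *Cebpa* (-0.12), both hepatocyte transcription factors, and *Igf1* (-0.26), the growth hormone target that circulates as a growth factor. *Zhx2*, a regulator of *Mup* expression, had a log2 ratio of 0.08.

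Of 20 other genes with a male bias in mouse liver, 18 had a mean of at least 10, with a median log2 ratio of -0.08, 3 at least 1.5-fold higher in KO (background 1.57%) and 1 at least 1.5-fold lower (background 5.79%). The higher ones were *Susd4* (0.75), *Moxd1* (0.64) and *Cspg5* (0.64), and the lower one was *Selenbp2*, which went from 3504 to 1935 normalised reads (-0.86). The most abundant were *Serpina1e* (-0.19), *Gstp1* (-0.27) and *Cyp2d9* (-0.12). Of 20 female-biased genes only 4 had a mean of at least 10. Their median was -0.36, with 0 at least 1.5-fold higher and 1, *Fmo2* (-0.75), at least 1.5-fold lower against the same background, beside *Cyp17a1* (-0.27) and *Acot3* (0.49).

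Among 20 other abundant secreted liver proteins, 17 were lower in KO, as were 65.8% of the 222 genes with a mean of at least 10000. Of the 20, all with a mean of at least 10000, 0 passed the fold in either direction. At that level 5 of the 222 genes passed it, 4 of them lower in KO (1.8% of the 222). Over genes with a mean of at least 10 the background was 5.79% lower and 1.57% higher. Their median log2 ratio was -0.20, with a range of -0.52 to 0.17. *Alb*, albumin, stood at 0.00, *Apoe* at -0.38 and *Apoa1* at -0.40. The range of this list and that of the 10 *Mup* genes overlapped between -0.52 and -0.41.

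Markers of other cells that a liver sample can hold were read in the same table. The 3 erythroid markers with a mean of at least 10 were all higher in KO, while 57.7% of all genes with such a mean were lower. *Hbb-bs* had 25147 normalised reads in WT and 43522 in KO (0.79, past the fold), *Hba-a1* 55601 and 82090 (0.56), and *Alas2* 2105 and 2786 (0.40). Kupffer cell markers had a median of 0.05 (*Cd5l* 0.46, *Clec4f* -0.05, *Vsig4* 0.11) and a summed level of 1903 in WT and 2193 in KO. Sinusoidal endothelial markers had a median of -0.13 (*Clec4g* -0.04, *Stab2* -0.14, *Fcgr2b* -0.12), with 1690 and 1574, and stellate cell markers a median of -0.21 (*Dcn* -0.50, *Reln* 0.17, *Colec11* 0.02), with 2334 and 2008. Of 4 pancreas acinar markers only *Cela1* (0.08) had a mean of at least 10, and the summed level was 96.2 in WT and 105.6 in KO. The part of these cells in the *Mup* values was not tested.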

How the data were processed

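RNAseq of liver gave 6 libraries, 3 of WT and 3 of KO pools, which were grouped by the sample labels. The authors' sequencing service cleaned and mapped the reads. The labels name the build mm10 and HISAT2, Bowtie2, RSEM, StringTie, Cufflinks and GATK without role or version, and how reads shared by several genes were counted is not given in the sources used here. The authors deposited, per gene, a signal for each genotype, in reads scaled by DESeq2 size factors, with the difference between genotypes shrunken toward none. Over weak genes with recovered reads, the deposited log2 ratio was a median of 0.466 times the recovered one for sums of 20 to 60 normalised reads (734 genes) and 0.709 times for 60 to 400 (1061 genes); its size for the abundant *Mup* genes is unknown. The authors' log2 ratio, p-value and adjusted p-value columns hold their own comparison and were not used. The percent of reads mapped and the counts of clean reads were deposited per library as the service reported them. The table of splicing events was not used.

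The *Mup* genes and all gene lists were chosen with earlier results of these data known. Named were all *Mup* genes, *Txndc5*, the 3 most abundant genes and those past 1.5-fold of each list, and the 3 genes nearest to *Mup15*, except for a few that are not reported here; *Ghr*, *Stat5b*, *Zhx2* and the genes beside *Rn18s* were added after their values were seen. Log2 ratios of KO over WT were computed from the 2 deposited values without a pseudocount. With 1 value per genotype they carry no error, and the count test planned for counts per library could not be run. Weak genes with a sum of normalised reads up to 400 over the 6 libraries were resolved into whole reads by enumeration, within 2.5 times the rounding of the table. This succeeded for 8063 of 8081 genes (99.8%). Where more than 1 solution fitted and the log2 ratio was beyond 0.5, only solutions with the deposited direction were kept. All 1077 resolved genes beyond 0.5 had that direction, which was fixed in advance where more than 1 solution fitted and is no check there. On simulated data, with ratios set in the direction of their own reads, 2999 of 3000 genes were resolved, all 2999 rightly. limma 3.58.1 in R 4.3.3 was run on log2(normalised reads + 1) for 3307 genes with sums from 60 to 400. The p-values measure the spread between pools. Positions and transcripts came from GENCODE M21 (GRCm38), promoters from RefSeq (GRCm38.p6). Alternatives were other pseudocounts, scalings, filters, folds, window lengths and libraries left out.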

Additional observations from a re-analysis of the deposited data

How the results depend on the processing

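All 40 ratios of the 10 *Mup* genes under 2 pseudocounts and 2 scalings kept their direction, and the number past 1.5-fold was 3 under each. No direction could have reversed, so this is no check of the ratios. The pseudocount of 10 moved a ratio by 0.0004 at most. The scalings took constants of -0.05 and -0.07 from ratios of -0.99 to -0.41. The log2 ratio of their sum was between -0.56 and -0.48 with all 21 genes, without *Mup15*, as a percent of all genes or centred on the median gene, beside -0.58. The 836 genes past 1.5-fold in either direction were 276 with a mean of at least 100, 102 at 2-fold and, in a filter added after seeing the data, 5 with a mean of at least 10000; these counts are over fewer genes or a larger fold by construction. Without a filter they were 1118 and after centring 779. The median share of unique windows was 7.33% with 50 bases and 21.4% with 150, beside 13.8% with 100. For the recovered reads, limma called 0 *Mup* genes under every alternative, and with libraries left out the count ranged from 0 to 0. The log2 difference of *Mup5* was -1.50 to -0.52 with libraries left out and that of *Mup8* -1.06 to 0.26; *Mup8* reversed to 0.07 without KO library 2 and to 0.26 without WT library 2. No paired analysis was run, since neither the sample titles nor the paper names pairs of WT and KO pools. The titles number the WT pools 1, 2 and 5 and the KO pools 2, 3 and 4, and the deposited columns carry no number. The depth of the abundant genes is high, and what limits their values is the single value per genotype, the shrinkage of the ratio and reads shared between copies.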

Other observations

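Other lipocalins, the protein family to which the major urinary proteins belong, were read in the same table. Of 18 such genes 13 were listed and 8 had a mean of at least 10, with a median log2 ratio of KO over WT of 0.07, 2 at least 1.5-fold higher (1.57% of the 11367 genes with a mean of at least 10) and 0 at least 1.5-fold lower (5.79%). *Lcn2*, a siderophore-binding acute phase protein, had 147 normalised reads in WT and 396 in KO (1.43), and *Orm2*, an acid glycoprotein of the acute phase, had 97.7 and 231 (1.24). The most abundant were *Rbp4*, the plasma carrier of retinol (-0.00), *Ambp* (-0.15) and *Orm1* (0.35). *Lcn2* and *Orm2* were far less abundant than the 10 *Mup* genes, and each has 1 deposited value per genotype. For *Lcn2* the authors also reported RT-qPCR on individual mice, with a significantly higher level in KO.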
